A study of Mus musculus with 4 samples.

Results

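To describe complement expression in macrophages, 9 genes of the complement system were followed across wild-type and Trim24-deficient cells with and without IL-4. The genes were C1qa, C1qb, C1qc, C4b, C3, Cfb, Cfp, C3ar1 and C5ar1, chosen by name, and all 9 were among the 16403 genes listed in at least 1 library. The cells were peritoneal macrophages of C57BL/6 mice, elicited with 4% thioglycolate for 4 days, left to adhere for 4 h and kept in medium with 0.5% serum. They came from wild-type littermates or from mice labelled TIF1a-/- (TIF1a-KO, TIF1a being another name of Trim24). Per the study's methods the knockout mice had both Trim24 alleles floxed and carried LysM-Cre, a Cre recombinase expressed from the lysozyme M locus in myeloid cells. Each genotype was left untreated or stimulated with IL-4 at 20 ng/mL for 6 h. This gives 4 groups of 1 library, untreated and IL-4-treated wild-type and untreated and IL-4-treated knockout. There are no replicates, the labels do not state how many mice contributed to a library, and a test on the reads of a pair of libraries compares those libraries, not the conditions.

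Complement is a set of proteins that tag microbes and dying cells for removal. C1q recognizes targets and starts the classical pathway, which cleaves C4 and then C3. Factor B and properdin drive the alternative pathway, which amplifies the cleavage of C3. The released fragments C3a and C5a attract and activate leukocytes through the receptors C3aR and C5aR1. The liver makes most plasma complement, whereas macrophages are a main source of C1q and also make properdin and other components locally.

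The libraries held 11026033 to 11250099 expected reads, and a gene with no reads could still have 3, or 0.267 to 0.272 CPM (counts scaled to the library total). Intervals cover counting error only, since each group holds 1 library. Reads carry no molecular identifiers and may repeat a molecule, so even this error may be understated. Trim24 stood at 2.55 FPKM in untreated and 1.48 FPKM in IL-4-treated wild-type cells, against 0.06 and 0.14 FPKM in the libraries labelled TIF1a-KO. Lyz2, the gene whose locus carries the Cre, stood at 11289 and 10811 FPKM in wild-type cells, against 5193 and 4761 FPKM in the knockout libraries. All 6 macrophage markers were listed in every library, with a summed level of 3526 to 3926 FPKM. Most of this sum was Cd68, at 3005 to 3465 FPKM, and the lowest marker of the list, Fcgr1, stood at 4.99 to 8.90 FPKM. The other lists were low. Summed levels were 8.47 to 12.4 FPKM for resident large peritoneal macrophages (6 of 6 genes listed), 4.08 to 6.52 for B cells (4 of 5, Ighm at 0), 0.85 to 1.54 for T and NK cells (4 of 5, Trac at 0), 5.15 to 8.76 for neutrophils (2 of 5, with Ly6g, S100a9 and Camp at 0), 1.98 to 4.74 for eosinophils and mast cells (4 of 5, Epx at 0) and 0.77 to 1.21 for dendritic cells (4 of 4). Fibroblast and mesothelial markers (7 of 7) summed to 44.6, 38.8, 22.4 and 43.4 FPKM, wild-type libraries first and untreated before IL-4-treated. Every set of 4 values below keeps this order.

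Levels of the 9 genes spanned a wide range, and per transcript length C1qb and C1qc were the most abundant. FPKM, which divides reads by transcript length and library total, ran from 240.1 to 269 for C1qb and from 159 to 189 for C1qc. C3ar1 lay between 114 and 135 FPKM, Cfp between 54.4 and 135, and C1qa between 76.7 and 95.3. C3 (24.6 to 41.0 FPKM) and C5ar1 (11.4 to 35.9) followed, and Cfb (10.1 to 13.3) and C4b (4.75 to 8.78) were the lowest. The highest library exceeded the lowest by 3.14-fold for C5ar1, 2.49-fold for Cfp, 1.85-fold for C4b and 1.67-fold for C3. For the 3 C1q chains, C3ar1 and Cfb it did so by 1.12- to 1.31-fold. Together the 9 genes took 0.139% to 0.170% of all reads, and the C1q chains made up 61.6% to 65.8% of their summed FPKM.

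**Figure D1:**
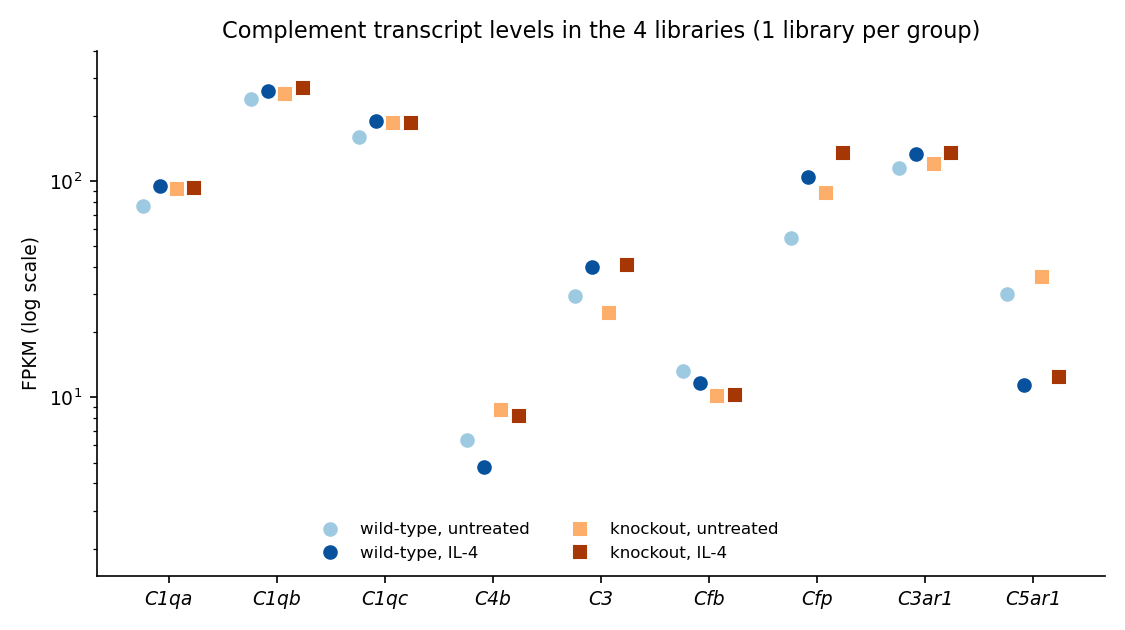
Level of each complement gene (FPKM, log scale) in the 4 libraries, 1 point per library, with wild-type as circles, knockout as squares and IL-4-treated libraries in the darker shade. C5ar1 is lower in both IL-4 libraries, and Cfp rises from 54.4 FPKM in untreated wild-type to 135 FPKM in the IL-4-treated knockout. For each C1q chain the 4 libraries lie close together.

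Most of the genes lie in clusters. C1qb (gene ID 12260), C1qc (12262) and C1qa (12259) are neighbors on the minus strand of chromosome 4 in GRCm38, at chr4:136880126-136886200, chr4:136889801-136892936 and chr4:136895916-136898844. Only 3600 and 2979 bases separate them. C4b (12268, chr17:34728139-34743902) and Cfb (14962, chr17:34856374-34862514) lie 112471 bases apart on chromosome 17. C4a, a near-identical copy of C4b, lies between them, and C2 begins 87 bases beyond Cfb. The other genes are C3 (12266, chr17:57203967-57228136), C3ar1 (12267, chr6:122847140-122856157), C5ar1 (12273, chr7:16246743-16259540) and Cfp (18636, chrX:20925454-20931555). All 9 are on the minus strand. An annotated miRNA gene overlaps C3 (Mir6978) and Cfb (Mir6972), and these were listed at 0 and at a mean of 0.81 FPKM.

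The response to IL-4 was examined first. C5ar1, which encodes the main receptor for C5a, was lower with IL-4 in both genotypes, and Cfp, which encodes properdin, the stabilizer of the alternative pathway convertase, was higher in both. C3, the component on which all pathways converge, was also higher, past the fold threshold only in the knockout. The C1q chains and the C3a receptor moved by less than 1.5-fold. A gene was called when its FPKM differed by more than 1.5-fold and a two-sided Fisher's exact test on reads gave a Benjamini-Hochberg adjusted p under 0.05 over all genes with a read. By this rule 2 of the 9 genes were called in the wild-type (Cfp higher, C5ar1 lower), where 12.8% of 15593 genes were called (4.91% upward and 7.88% downward). In the knockout 3 of the 9 were called (Cfp and C3 higher, C5ar1 lower), where 9.32% of 15738 genes were called (5.29% upward and 4.03% downward). Over the 9 genes the median log2 ratio was 0.22 for the wild-type pair and 0.02 for the knockout pair, against -0.03 and 0 over all genes with a read. In bulk RNA, fewer cells of a type and less RNA per cell cannot be told apart.

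C5ar1 was listed at 30.1, 11.4, 35.9 and 12.4 FPKM, on 840, 325, 1001 and 343 reads. Both untreated libraries lay far above both IL-4-treated ones. As shares, untreated wild-type (76.1 CPM; 95% Wilson interval, 71.1 to 81.4) and untreated knockout (90.8; 85.3 to 96.6) did not overlap, while the intervals with IL-4 (28.9; 25.9 to 32.2 and 31.1; 28.0 to 34.6) did. The log2 ratio of IL-4 to untreated was -1.39 ± 0.09 (SE, counting error) in the wild-type, or 2.63-fold lower (adjusted p = 1.3e-53, Fisher's exact test). In the knockout it was -1.53 ± 0.09, or 2.89-fold lower (adjusted p = 4.4e-73, Fisher's exact test). The level of C3ar1 was 3.79 times that of C5ar1 in untreated wild-type cells and 11.6 times with IL-4, and the corresponding ratios in the knockout were 3.34 and 10.9. Since both genes are read in the same library, these FPKM ratios do not depend on a scaling factor of the whole library. They do depend on the trend over transcript length (described below). In the wild-type IL-4 pair this trend was -0.14 on the log2 scale at the length of C3ar1 and 0.04 at that of C5ar1.

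Cfp was listed at 54.4, 105, 88.4 and 135 FPKM, on 978, 1918, 1588 and 2431 reads. The 4 libraries stood apart from each other, with Wilson intervals of 83.2 to 94.4, 163 to 178, 137 to 151 and 212 to 229 CPM. With IL-4, Cfp rose by 0.94 ± 0.06 on the log2 scale in the wild-type, or 1.92-fold (adjusted p = 6.9e-64, Fisher's exact test). In the knockout the ratio was 0.61 ± 0.05, or 1.53-fold, just past the threshold (adjusted p = 4.7e-39, Fisher's exact test). With a trend of the ratios over transcript length removed (described below), the knockout ratio was 0.58 and just under it.

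C3 was listed at 29.5, 40.1, 24.6 and 41.0 FPKM, on 1691, 2346, 1411 and 2349 reads. The IL-4-treated libraries were nearly equal, and the untreated knockout was the lowest. The log2 ratio of IL-4 to untreated was 0.44 ± 0.05 in the wild-type (1.36-fold) and 0.73 ± 0.05 in the knockout (1.66-fold; adjusted p = 1.1e-51, Fisher's exact test). The sum of the fibroblast and mesothelial markers was also lowest in the untreated knockout library, at 22.4 FPKM. It was higher with IL-4 there but not in the wild-type. The markers did not move alike with IL-4 in the knockout. Col1a1 (4.81 to 15.4 FPKM) and Col1a2 (5.53 to 12.8) rose most, Dcn moved little (7.93 to 8.94) and Upk3b fell (0.58 to 0.13). The part of these markers in the C3 values was not tested.

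**Figure D2:**
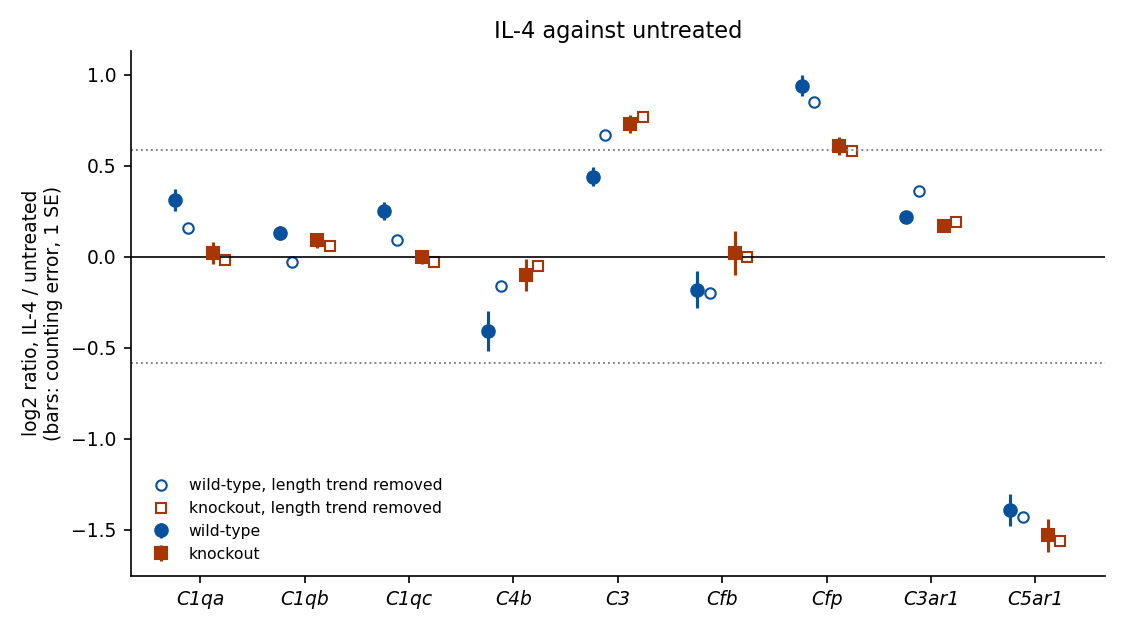
Log2 ratio of IL-4-treated to untreated FPKM for each complement gene in the wild-type (circles) and the knockout (squares), with bars of 1 SE from counting error, dotted lines at 1.5-fold and open symbols for the ratio after removal of the length trend. C5ar1 lies at -1.39 and -1.53, Cfp and C3 lie above 0 in both genotypes, and the wild-type value of C3 moves from 0.44 to 0.67 with the trend removed.

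The promoters of the 3 genes called with IL-4 in either genotype are shown because these genes moved in opposite directions under the same cytokine, whose transcription factor is STAT6. Each run is the RefSeq window from 250 bases before to 50 bases after the start (GRCm38.p6, minus strand, written 5′ to 3′), at chr7:16259289-16259588 for C5ar1, chrX:20931506-20931805 for Cfp and chr17:57228087-57228386 for C3. Capitals mark matches to any of 7 motifs searched on both strands.
C5ar1: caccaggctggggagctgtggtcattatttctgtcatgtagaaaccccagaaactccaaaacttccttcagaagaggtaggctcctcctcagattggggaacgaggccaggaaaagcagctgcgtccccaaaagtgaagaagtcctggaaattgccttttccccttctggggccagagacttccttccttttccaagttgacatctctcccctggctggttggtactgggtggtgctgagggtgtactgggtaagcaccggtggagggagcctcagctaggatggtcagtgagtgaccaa
Cfp: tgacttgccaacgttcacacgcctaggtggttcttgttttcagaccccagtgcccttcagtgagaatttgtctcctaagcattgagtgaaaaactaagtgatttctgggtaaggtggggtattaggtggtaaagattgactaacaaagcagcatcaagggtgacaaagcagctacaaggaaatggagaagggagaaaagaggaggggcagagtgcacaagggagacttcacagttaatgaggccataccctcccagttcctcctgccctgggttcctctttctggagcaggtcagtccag
C3: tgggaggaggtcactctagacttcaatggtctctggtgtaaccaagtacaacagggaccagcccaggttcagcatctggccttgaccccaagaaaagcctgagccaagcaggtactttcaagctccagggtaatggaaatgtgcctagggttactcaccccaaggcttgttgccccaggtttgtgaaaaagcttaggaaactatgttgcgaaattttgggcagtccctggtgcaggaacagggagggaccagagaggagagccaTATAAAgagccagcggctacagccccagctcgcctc

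Windows were found for 6 of the 9 genes (C1qb, C1qc, C3, C3ar1, C5ar1 and Cfp). None of the 6 held the STAT6-type motif, TTC and GAA with 4 bases between them, which 6.95% of 32851 promoter windows hold, or the GAS-type motif TTCNNNGAA (8.30%). The MAF-type motif TGCTGAC (4.67%) and the interferon-response-type motif, TTTC repeated after 2 bases (3.44%), were likewise in none of the 6. The capitals in C3 mark TATAAA, held by 13.6% of windows, which begins 15 bases into the transcript in this annotation. C3ar1 held TATAAA 235 bases before the start and the NF-kB-type motif, GGG and TTTCC with 2 bases between them (1.63% of windows), on the reverse strand. These matches describe letters in these windows and are not binding sites.

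The 3 chains of C1q are encoded by separate genes and assembled together, so their levels were compared with each other. C1qa was listed at 76.7, 95.3, 92.2 and 93.3 FPKM, C1qb at 240.1, 262, 252 and 269 FPKM, and C1qc at 159, 189, 185 and 185 FPKM. For each chain untreated wild-type was the lowest library. The other 3 lay close together for C1qa and C1qc, whereas for C1qb the untreated knockout lay between untreated wild-type and the IL-4-treated libraries. C1qb took 50.2% (95% Wilson interval, 48.9 to 51.6), 47.8% (46.5 to 49.0), 47.5% (46.2 to 48.7) and 49.0% (47.8 to 50.2) of the C1q reads. C1qc took 33.4% to 34.9% and C1qa 16.4% to 17.7%. The order of the chains was the same in every library, and the transcripts are of like length (1062 to 1082 bases).

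With IL-4 the wild-type log2 ratios were 0.31 ± 0.06 for C1qa, 0.13 ± 0.04 for C1qb and 0.25 ± 0.05 for C1qc, all under 1.5-fold. In the knockout they were 0.02 ± 0.06, 0.09 ± 0.04 and -0.00054 ± 0.04. These transcripts are short, and at their length the trend of all genes in the wild-type pair was itself 0.15. With the trend removed the wild-type ratios of C1qa, C1qb and C1qc were 0.16, -0.03 and 0.09. Between the untreated libraries the knockout was higher by 0.27 ± 0.07 for C1qa, 0.07 ± 0.04 for C1qb and 0.22 ± 0.05 for C1qc, again under 1.5-fold.

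The promoter windows of the neighboring genes C1qb (chr4:136886151-136886450) and C1qc (chr4:136892865-136893164) are shown because the chains kept nearly the same ratio in all 4 libraries. Both are from RefSeq (GRCm38.p6, minus strand, 5′ to 3′), with capitals for motif matches as above.
C1qb: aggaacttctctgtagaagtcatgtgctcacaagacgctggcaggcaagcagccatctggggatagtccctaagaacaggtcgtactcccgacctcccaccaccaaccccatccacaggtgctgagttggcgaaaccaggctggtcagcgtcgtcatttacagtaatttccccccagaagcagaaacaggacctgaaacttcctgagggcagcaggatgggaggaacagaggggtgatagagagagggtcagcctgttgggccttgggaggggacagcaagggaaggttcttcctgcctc
C1qc: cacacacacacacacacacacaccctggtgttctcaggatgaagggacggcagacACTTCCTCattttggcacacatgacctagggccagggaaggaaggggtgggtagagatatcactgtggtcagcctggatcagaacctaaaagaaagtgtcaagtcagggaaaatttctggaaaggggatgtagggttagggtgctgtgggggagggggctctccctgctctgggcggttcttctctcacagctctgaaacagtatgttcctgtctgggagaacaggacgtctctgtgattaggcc

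C1qc held the PU.1-type motif GAGGAAGT on the reverse strand 195 bases before the start. PU.1 is a lineage factor of macrophages, and 3.20% of all windows hold these letters. C1qb held none of the 7 motifs.

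The remaining genes stayed under 1.5-fold with IL-4. C3ar1 was listed at 114, 133, 120 and 135 FPKM, with log2 ratios of 0.22 ± 0.03 and 0.17 ± 0.03 in the wild-type and the knockout. It rested on 5478 to 6493 reads, so that ratios this small passed the exact test, but not the fold. Cfb, the serine protease of the alternative pathway, was listed at 13.3, 11.7, 10.1 and 10.3 FPKM, with ratios of -0.18 ± 0.10 and 0.02 ± 0.12. For Cfb no difference with IL-4 was detectable at this depth (adjusted p = 0.18 and 0.99, Fisher's exact test). C4b, the C4 of the classical pathway, was listed at 6.33, 4.75, 8.78 and 8.20 FPKM, with ratios of -0.41 ± 0.11 and -0.10 ± 0.09. The C4b values are uncertain, because RSEM splits reads that match both C4b and C4a. C4a received 1.79 to 5.26 expected reads, or 0.336% to 1.35% of those of both genes.

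Whether loss of Trim24 changed complement expression was assessed by comparing the genotypes within each treatment. Cfp was higher in the knockout in both, past the fold threshold only without IL-4. C4b was higher in both, past the threshold only with IL-4. No complement gene was called lower. Without IL-4, 1 of the 9 genes was called where 1.58% of 15623 genes were called (0.839% upward and 0.742% downward). With IL-4, 1 of the 9 was called where 3.81% of 15573 genes were called (3.05% upward and 0.764% downward). Over the 9 genes the median log2 ratio was 0.22 without and 0.03 with IL-4, against -0.0038 and 0.02 over all genes with a read.

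For Cfp the log2 ratio of knockout over wild-type was 0.70 ± 0.06 without IL-4, or 1.62-fold (adjusted p = 2.9e-31, Fisher's exact test), and 0.37 ± 0.04 with IL-4, or 1.29-fold. Removal of the length trend left it at 0.74 and 0.47. For C4b the ratio was 0.47 ± 0.10 without IL-4, or 1.38-fold, and 0.78 ± 0.11 with IL-4, or 1.71-fold (adjusted p = 2.3e-12, Fisher's exact test). C4b transcripts measure 5427 bases, and the trend at that length was 0.22 in the IL-4 pair. With it removed the IL-4 ratio of C4b was 0.56, or 1.47-fold, and no longer called, while the ratio without IL-4 was 0.45.

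C3 and Cfb were lower in the untreated knockout, by log2 ratios of -0.26 ± 0.05 and -0.38 ± 0.11, both under 1.5-fold. With IL-4 their ratios were 0.03 ± 0.04 and -0.18 ± 0.11. C5ar1 had ratios of 0.25 ± 0.07 and 0.11 ± 0.11, and C3ar1 of 0.07 ± 0.03 and 0.02 ± 0.03. The genotypes thus differed by less than 1.5-fold in both receptors, in C3, in Cfb and in the C1q chains, with and without IL-4. The knockout also carries the Cre allele. Whether the wild-type mice carried it is not given in the sources used here, and without that the effects of Trim24 loss and of the allele cannot be told apart.

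**Figure D3:**
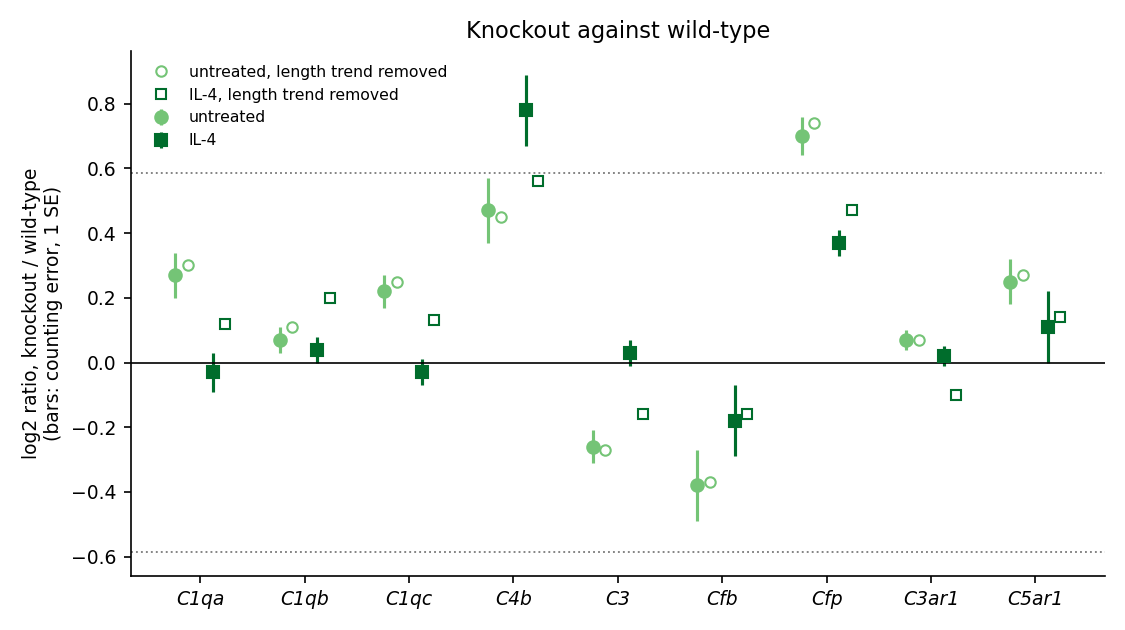
Log2 ratio of knockout to wild-type FPKM for each complement gene in untreated (circles) and IL-4-treated (squares) libraries, with bars of 1 SE from counting error, dotted lines at 1.5-fold and open symbols for the ratio after removal of the length trend. Cfp without IL-4 (0.70) and C4b with IL-4 (0.78) lie beyond the upper line, and C4b falls below it (0.56) when the trend is removed.

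The trend over transcript length touches these genes because their transcripts run from 1062 bases (C1qb) to 5427 bases (C4b). When the 10532 genes whose mean reached 1 FPKM were split into eighths of transcript length, the median log2 IL-4 ratio in the wild-type was 0.16 in the shortest eighth (up to 1186 bases) and -0.36 in the longest (5350 bases and more). For knockout to wild-type with IL-4 these medians were -0.17 and 0.34. In the other comparisons they lay between -0.10 and 0.04. Both strong trends involve the wild-type IL-4 library. With the trend removed, C3 was called higher with IL-4 in the wild-type as well (0.67, or 1.59-fold), and C5ar1 kept both calls (-1.43 and -1.56).

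**Figure D4:**
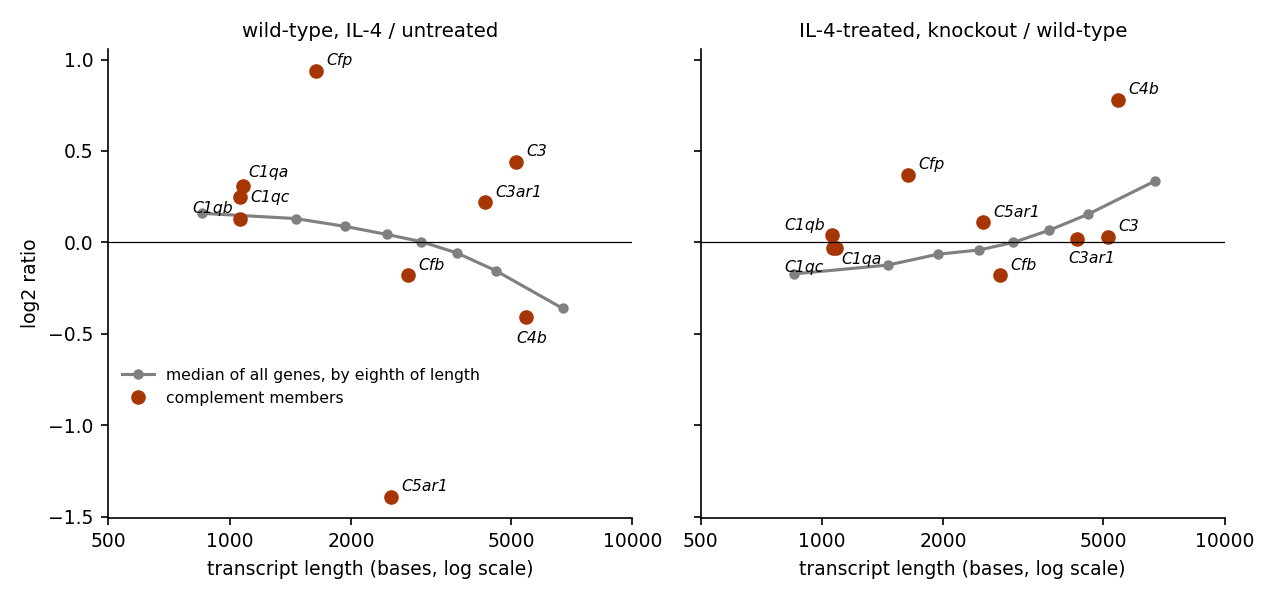
Log2 ratio against transcript length (bases, log scale) for IL-4 in the wild-type (left) and for knockout to wild-type with IL-4 (right), with the complement genes as points and the median of all genes whose mean reached 1 FPKM in each eighth of length as a line. The line falls from 0.16 to -0.36 on the left and rises from -0.17 to 0.34 on the right, C3 lies above it on the left, and C4b lies above it on the right.

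To use all 4 libraries at once, additive effects of IL-4 and genotype were fitted to the counts. Each effect is thus estimated from both pairs of libraries, with 1 degree of freedom left for the spread. That degree of freedom is the difference of the IL-4 responses between the genotypes, which the fit assumes to be absent. It holds no measure of the spread between mice or cultures. In edgeR's quasi-likelihood test, adjusted by Benjamini-Hochberg over 11791 genes, 3 of the 9 genes had an IL-4 effect, where 25.3% of all genes did (12.0% higher and 13.3% lower). C5ar1 fell by 1.46 ± 0.10 on the log2 scale (SE from the fit; adjusted p = 1.1e-07), Cfp rose by 0.79 ± 0.10 (adjusted p = 4.3e-05) and C3 rose by 0.60 ± 0.09 (adjusted p = 0.00028). A genotype effect was found for 2 of the 9, where 1.66% of all genes had one (1.29% higher and 0.373% lower). These were Cfp, higher in the knockout by 0.53 ± 0.10 (adjusted p = 0.012), and C4b, higher by 0.62 ± 0.11 (adjusted p = 0.0099). Both rested on the filter on low counts: with every gene that had a read, the adjusted p was 0.37 for Cfp and 0.26 for C4b. DESeq2 gave an adjusted p of 0.036 for Cfp and 0.20 for C4b. The other effects lay between -0.28 (Cfb, genotype) and 0.20 (C3ar1, IL-4), and none passed the adjusted threshold.

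Whether the genotypes differed in their IL-4 response was tested against counting error alone. None of the 9 genes differed by more than 1.5-fold at an adjusted p under 0.05 over all genes, where 1.89% of 16371 genes did (1.64% higher and 0.250% lower in the knockout). The log2 difference, knockout minus wild-type, was -0.15 for C5ar1 (95% interval, -0.40 to 0.11) and -0.05 for C3ar1 (-0.12 to 0.02). For Cfb it was 0.21 (-0.10 to 0.51) and for C4b 0.31 (0.03 to 0.60), with adjusted p of 0.59 and 0.21.

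The other genes of the pathway were taken from a list of 49, of which 38 had a read in at least 1 library and 21 a mean that reached 1 FPKM. The terminal pathway genes, Cfd and C2 were nearly silent. Of the 7 terminal pathway genes, which form the membrane attack complex, C7 and C8b were not listed and the other 5 (Hc, C6, C8a, C8g and C9) had means under 1 FPKM. Cfd, the protease that activates factor B, was listed at 0, 0, 0.10 and 0.10 FPKM, and C2 at 0.41 to 0.72 FPKM. The C1q proteases C1ra and C1s1 were listed at 2.13 to 3.04 and 2.51 to 3.23 FPKM, far below the C1q chains.

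Of the 21 genes, 1 was called higher and 4 lower with IL-4 in the wild-type, and 2 higher and 3 lower in the knockout, with median log2 ratios of -0.05 and -0.10. Over all genes with a read, 4.91% were called upward and 7.88% downward in the wild-type pair, and 5.29% and 4.03% in the knockout pair. Tested alone, the 10532 genes whose mean reached 1 FPKM gave 652 upward and 999 downward calls in the wild-type pair. In the knockout pair they gave 693 and 545. Among the receptors, Itgax, the alpha chain of complement receptor CR4, was listed at 44.7, 77.2, 54.9 and 97.2 FPKM and rose by 0.79 ± 0.04 and 0.82 ± 0.04. Itgb2, the beta chain it shares with CR3, differed by -0.05 and -0.10, and Itgam, the alpha chain of CR3, by 0.05 and 0.36, under the fold threshold. C1qbp and Calr, which encode proteins that bind C1q, were listed at 36.7 to 58.2 and 541 to 625 FPKM and were not called in any comparison. The second C5a receptor, C5ar2, was listed at 1.26, 0.62, 1.71 and 0.79 FPKM. Its log2 ratios of -0.92 ± 0.35 and -1.02 ± 0.32 were both called lower, as were those of C5ar1, on 24.9 to 66.3 reads. Cd93, a membrane protein first described as a C1q receptor, was listed at 107, 31.1, 106 and 40.2 FPKM and fell by 1.79 and by 1.40 on the log2 scale. Thbd, which encodes thrombomodulin, fell by 1.02 and by 1.05 on the log2 scale.

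Lrp1, a large endocytic receptor with transcripts of 14907 bases, had a wild-type IL-4 ratio of -1.22 that became -0.50 with the trend removed, under 1.5-fold. Cd55, which encodes decay-accelerating factor, was called higher with IL-4 in the knockout (0.65 ± 0.26, IL-4 over untreated) on 48.0 untreated and 76.7 IL-4 reads and was not called with the trend removed (0.62). Between genotypes, 1 of the 21 was called without IL-4 and 2 with IL-4, all higher in the knockout. Over all genes the shares called were 1.58% and 3.81%, and with IL-4 80.0% of all calls were likewise higher. Of the 10532 genes whose mean reached 1 FPKM, tested alone, 204 and 500 were called. Colec12, a scavenger receptor collectin, was higher by 1.60 ± 0.06 and 1.56 ± 0.07, and Lrp1 was higher with IL-4 by 0.93, which fell to 0.31 with the trend removed. Fcna, which encodes ficolin A of the lectin pathway, was listed at 25.4, 22.8, 36.2 and 32.7 FPKM. Its ratios of 0.51 ± 0.10 and 0.52 ± 0.10 were under the threshold, and with the length trend removed the IL-4 pair was called (0.65). Its edgeR genotype effect was 0.52 (adjusted p = 0.021). The membrane inhibitors Cr1l (37.5 to 45.9 FPKM) and Cd59a (5.90 to 7.17 FPKM) were not called in any of the 4 comparisons.

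**Figure D5:**
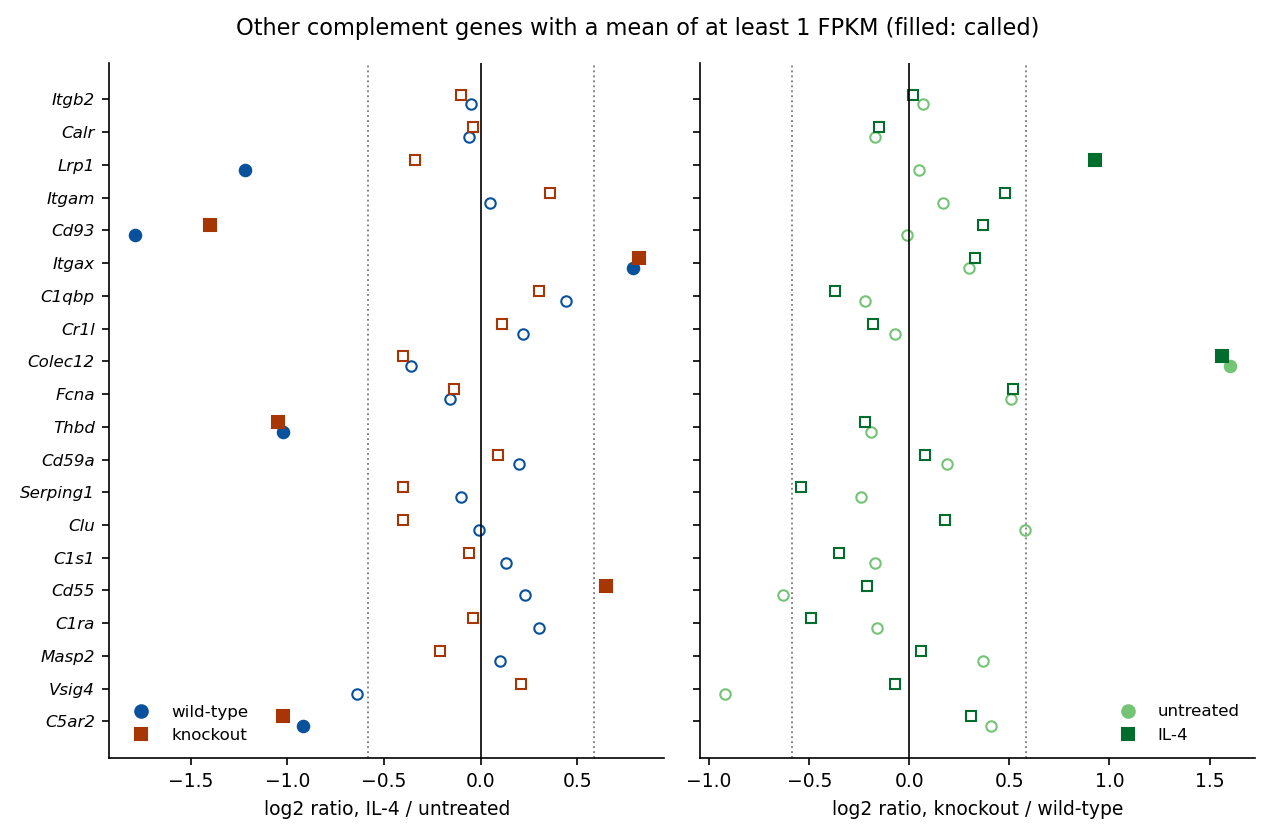
Log2 ratios of 20 of the 21 other complement genes whose mean reached 1 FPKM, in order of mean level, for IL-4 to untreated (left, wild-type circles and knockout squares) and knockout to wild-type (right, untreated circles and IL-4 squares). Filled symbols were called, dotted lines mark 1.5-fold, and Cd93, Thbd and C5ar2 lie at the lower end in both genotypes with IL-4.

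Genes with profiles like those of the complement genes were found by the Euclidean distance of log2 levels, centered over the 4 libraries, among 3288 other genes whose mean reached 20 FPKM. Nearest to C5ar1 were Hal (distance 0.094), Ccrl2 (0.163) and Tnfaip2 (0.193). Hal was listed at 52.5, 20.1, 59.1 and 22.4 FPKM, with the same split between untreated and IL-4-treated libraries. Nearest to Cfp were Map4k1 (0.099), F7 (0.182) and Cblb (0.250). F7, which encodes coagulation factor VII, was listed at 79.1, 127, 118 and 177 FPKM. Nearest to C4b were H2-T24 (0.053), Rassf8 and Dot1l, and nearest to C3 were Polr2g (0.076), Selenos and Med15. The C1q chains were nearest to Vps52 (0.032), Dhrs7 and Anxa1, C3ar1 to Ndufv1 (0.019), Srp72 and Usb1, and Cfb to Emc10 (0.050), Anp32a and Mrpl52. The last 3 profiles are nearly flat, and with 4 libraries many genes lie close to such a profile.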

How the data were processed

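RNA of peritoneal macrophages was analyzed in 4 libraries, 1 per group. The authors aligned the reads with Bowtie to GRCm38 (mm10) and used RSEM to quantify genes. Versions, and whether counting used strand, are not given in the sources used here. The deposited expected counts are reads assigned to each gene, which need not be whole, and were rounded for tests. The deposited FPKM values are scaled by the authors to transcript length and library total. Unlisted genes were set to 0. Of 16403 gene IDs, 16365 matched a symbol in a RefSeq table (GRCm38.p6).

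Groups followed the sample titles. Ratios were computed as differences of log2(FPKM + 0.1), so changes of genes at low levels are understated. Pairs were compared by Fisher's exact test, all 4 libraries by edgeR 4.0.16 (TMM, filterByExpr, R 4.3.3), and the difference of responses by a normal test on counts with 0.5 added. Statistics used Python 3.11.15 with scipy 1.17.1 and statsmodels 0.14.6. The thresholds of 1.5-fold and 0.05 follow the study's methods. The length trend was a lowess curve (fraction 0.3) per library, fitted to 10443 genes of at least 200 bases and 1 FPKM, with an exact binomial test against the shifted share. The alternatives tried were a pseudocount of 0.01 or 1, a minimum of 1 FPKM, TMM, a fold of 2, a biological coefficient of variation set to 0.2 or 0.4, upper-quartile scaling, DESeq2 1.42.0 and no count filter. The scripts were tested on simulated data.

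The members and lists were chosen with earlier results of these data known. Named genes were the 9 members, Trim24, Lyz2, listed complement genes called in any pair at 1 FPKM or with a mean from 20 FPKM, and the 3 nearest profiles per member. Complement genes named beyond these (Hc, C6, C7, C8a, C8b, C8g, C9, Cfd, C2, C1ra, C1s1, C4a and Cd59a) were chosen after their values were seen. Among pathway genes whose mean reached 1 FPKM, 1 is not reported here.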

Additional observations from a re-analysis of the deposited data

Results flagged for a closer look

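The IL-4 responses of 4 complement genes differed between the genotypes at an adjusted p under 0.05 when tested against counting error alone, each by less than 1.5-fold. The share of all genes that pass this adjusted p without the fold is not given here, so the 4 of 9 cannot be set against it. With the fold required, 1.89% of 16371 genes were called and none of the 9. The log2 difference, knockout minus wild-type, was -0.30 for C1qa (95% counting interval, -0.47 to -0.12), -0.25 for C1qc (-0.37 to -0.12), -0.33 for Cfp (-0.47 to -0.19) and 0.29 for C3 (0.16 to 0.42). The adjusted p was 0.015, 0.0023, 0.00026 and 0.00044. With the length trend removed the differences were -0.18, -0.13, -0.27 and 0.11, and of these Cfp stayed under 0.05 (adjusted p = 0.012). C3ar1 then differed by -0.17 (adjusted p = 0.0005). With a biological coefficient of variation of 0.2 assumed for each library, the adjusted p was 1 for all 9 genes. For C1qa, C1qc and Cfp the untreated wild-type library held the lowest level of the 4, and for C3 the untreated knockout did. All 4 libraries enter each of these differences.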

How the results depend on the processing

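Of 387 values of single complement genes under the alternatives, 351 kept their direction and their side of the threshold, 23 lost a call, 2 gained one (C3 with IL-4 in the wild-type, 0.67, and C3ar1 in the additive IL-4 effect, 0.28, both with the length trend removed) and 11 changed sign. None of those that changed sign was called. With the trend removed the IL-4 ratio became -0.03 for C1qb in the wild-type, and -0.02 for C1qa and -0.0014 for Cfb in the knockout. The ratio of knockout to wild-type with IL-4 became 0.12 for C1qa, 0.13 for C1qc, -0.16 for C3 and -0.10 for C3ar1, the additive genotype effect of C3ar1 -0.02 and the difference of responses of C1qb 0.09. By TMM scaling C1qc was at 0.0024 (IL-4, knockout) and C3ar1 at -0.0012 (genotype, IL-4).

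Counts of all genes, and of complement genes, were compared in the order IL-4 in the wild-type, IL-4 in the knockout, genotype untreated and genotype with IL-4. At a fold above 2 they were 861 and 1, 711 and 1, 128 and 0, and 171 and 0. An assumed coefficient of 0.2 gave 258 and 0, 272 and 1 (C5ar1), 15 and 0, and 21 and 0, and one of 0.4 gave 45 and 0, 33 and 0, 7 and 0, and 11 and 0. The main counts of all genes were 1994, 1466, 247 and 594. A pseudocount of 1 gave 156 and 322 for the genotype pairs. Removal of the trend gave 315 and 0 for genotype with IL-4. It moved the share of higher calls from 80.0% to 68.9% there and from 38.4% to 49.8% for IL-4 in the wild-type.

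In the additive fit, 2987 genes had an IL-4 effect, 1262 by DESeq2 and 1675 without the count filter. A genotype effect was found for 196 genes (77.6% higher), 494 by upper-quartile scaling (67.0% higher) and 624 with the trend as an offset (63.9% higher). DESeq2 gave 68 genes (88.2% higher), with 1 complement gene, Cfp. Without the filter edgeR gave 24 genes, with 0 complement genes. The difference of responses was called for 309 genes (86.7% higher in the knockout), 85 with the trend removed (71.8%) and 0 with an assumed coefficient of 0.2. No paired analysis was possible because each group holds 1 library, so none could be left out either. With 1 library per group, the spread between mice or cultures is not measured.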
